A study of Mus musculus with 15 samples.

Results

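A set of 10 enzymes and cofactors that write, keep or remove DNA methylation or write the H3 lysine 27 methylation of Polycomb were followed in antigen-specific CD8+ T cells: Dnmt1, Dnmt3a, Dnmt3b, Uhrf1, Tet1, Tet2, Tet3, Ezh2, Eed and Suz12. They were chosen by symbol, and all 10 of 10 were found among the 55536 genes of the count table and passed the filter that left 24262 genes for testing. OT-I CD8+ T cells, which carry a transgenic T cell receptor for the ovalbumin peptide SIINFEKL and were Rag-deficient and CD45.1+, were transferred into C57BL/6J mice. In the Ag group (5 libraries) the recipients were given the peptide with control rat IgG. In the Ag+Costim group (5 libraries) they were given the peptide with agonist antibodies against the costimulatory receptors CD134 (OX40) and CD137 (4-1BB). Both groups thus shared the transgene, the transfer and the antigen. Collection was on day 4 by the labels and somewhat earlier by the study's methods. Donor cells were sorted from spleen and lymph nodes and their poly(A) RNA was sequenced. The cells are 1 receptor specificity in hosts that kept their own T cells, mice of both sexes were used and ages are not given by group. Naive counts were not analysed here. The labels do not tie a library to a single animal, while the study's text speaks of biological replicates, and the p-values measure the spread between these libraries.

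In mammals, DNA methylation is copied onto the new strand after replication by Dnmt1, which Uhrf1 recruits to hemimethylated CpG sites, and is set on unmethylated DNA by Dnmt3a and Dnmt3b. Tet1, Tet2 and Tet3 oxidise methylcytosine, which starts its removal. Polycomb repressive complex PRC2, built from Ezh2 or its paralog Ezh1 with Eed and Suz12, methylates lysine 27 of histone H3. In CD8+ T cells Dnmt3a, Tet2 and Ezh2 are known for their parts in effector and memory differentiation.

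Levels are given as CPM, counts brought to a common library total and scaled with TMM factors, which aim to set the bulk of genes equal between libraries. The differences are log2 fold changes (Ag+Costim over Ag) of edgeR's quasi-likelihood test, with their standard errors (SE) and Benjamini-Hochberg (BH) adjusted p over all 24262 genes. The median log2 fold change of the 8626 genes at 10 CPM or more was 0.24 with this scaling and 0.00 with total counts. That of all genes tested was -0.32.

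The libraries of the Ag group differed among themselves. They held 59.6 to 449.4 M estimated counts over 20714 to 51778 genes with a count, against 332.3 to 639.1 M over 28727 to 30340 genes in Ag+Costim. The mean log2 CPM of 20 proliferation genes (Mki67, Top2a, the Mcm helicase subunits and others) was 5.97, 9.02, 8.31, 6.08 and 9.09 in Ag 1 to 5 and 9.02 to 9.31 in Ag+Costim. Ag 1 and Ag 4 were thus low, and Ag 2 and Ag 5 fell inside the Ag+Costim range. Ag 1, 3 and 4 were also the 3 libraries with over 40000 genes detected. Markers of B cells (6 of 6 detected) summed to 116, 18.5, 305, 146 and 20.8 CPM in Ag 1 to 5 and to 14.6 to 32.6 CPM in Ag+Costim. Erythroid markers (6 of 6) reached 1103 CPM in Ag 3 and at most 126 CPM elsewhere, while CD8 T cell markers (8 of 8) summed to 3973 to 7594 CPM in every library. Markers of CD4 T cells (3 of 3) and NK cells (3 of 3) summed to at most 20.1 CPM in any library, and myeloid markers (8 of 8) to 42.4 to 135 CPM in Ag and 69.6 to 163 CPM in Ag+Costim. The part of these differences in the results below was not tested, and in bulk RNA fewer cells of a type and less RNA per cell cannot be told apart.

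Of the 10 genes, 4 were higher in every Ag+Costim library than in any Ag library: Dnmt1, Uhrf1, Ezh2 and Suz12. None was lower without overlap. Among all genes tested the groups did not overlap with Ag+Costim higher in 4.48% and with Ag+Costim lower in 1.13%, and among the 8626 genes at 10 CPM or more they did not overlap with Ag+Costim higher in 11.3%. No gene of the whole table passed edgeR's BH threshold of 0.05 (0%), and the 10 genes were no exception. At an unadjusted p under 0.05 edgeR counted 5 of the 10 (Dnmt1, Dnmt3a, Tet3, Ezh2 and Suz12), beside 18.6% of all genes. DESeq2 called 4 of them higher (Dnmt1, Dnmt3a, Ezh2 and Suz12) and Tet3 lower at an adjusted p under 0.05, where 2.57% of all genes were called higher and 19.7% lower. A limma voom fit with a weight per library called 6 higher and 3 lower, where 25.8% and 26.4% of all genes were called. Its weights were 1.42, 0.099, 0.51, 2.00 and 0.066 for Ag 1 to 5 and 1.70 to 3.35 in Ag+Costim. Ag 2 and Ag 5 thus counted least in that fit. The split of genes without overlap depended on scaling: TMM gave 1086 higher and 273 lower, size factors of DESeq2 gave 698 and 372, total counts gave 670 and 450, and the upper quartile gave 360 and 553.

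**Figure D1:**
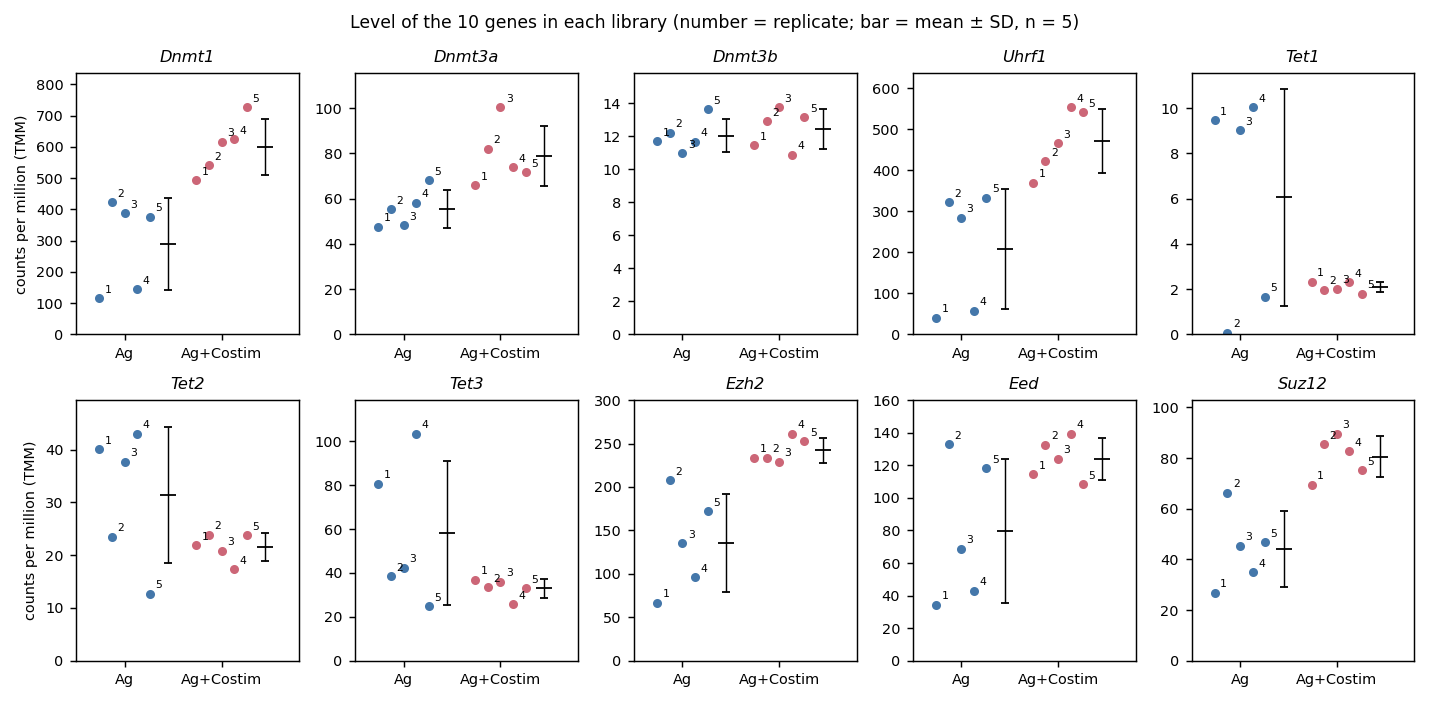
Level of each of the 10 genes in TMM-scaled CPM (vertical axis, linear from 0) in each Ag (blue) and Ag+Costim (red) library, numbered by replicate, with the mean and SD of 5 libraries as a bar. Dnmt1, Uhrf1, Ezh2 and Suz12 show no overlap between the groups, and the Ag libraries spread more widely than the Ag+Costim libraries in 8 of the 10 genes.

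Dnmt1, the maintenance methyltransferase (ENSMUSG00000004099.16, mm10 chr9:20907209-20959888, minus strand), was at 115, 423, 388, 146 and 376 CPM in Ag 1 to 5 and at 493, 542, 617, 625 and 727 CPM in Ag+Costim 1 to 5. Ag 1 and Ag 4 were the low libraries, and no library of one group reached the range of the other. The means were 289.6 ± 146.8 and 601 ± 89.2 CPM (SD, n = 5 each), and the log2 fold change was 1.05 (SE 0.36, edgeR adjusted p = 0.236). With total counts in place of TMM the ranges of Dnmt1 overlapped.

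Uhrf1, which brings Dnmt1 to newly replicated DNA (ENSMUSG00000001228.14, chr17:56303321-56323486, plus strand), was at 40.9, 323, 284, 57.6 and 334 CPM in Ag and at 371, 423, 467, 554 and 542 CPM in Ag+Costim. The same Ag libraries as for Dnmt1 were low, and the Ag values spanned 8.17-fold against 1.5-fold in Ag+Costim. The log2 fold change was 1.18 (SE 0.54, edgeR adjusted p = 0.270). Counted per transcript length, Uhrf1 over Dnmt1 was 0.535 in Ag 1 and 0.589 in Ag 4 but 1.11 to 1.34 in the other 3 Ag libraries and 1.14 to 1.35 in Ag+Costim. In the 2 libraries lowest in proliferation genes Uhrf1 was therefore lower relative to Dnmt1 than in any other library.

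Dnmt3a, a de novo methyltransferase (ENSMUSG00000020661.15, chr12:3806007-3914443, plus strand), was at 47.6, 55.3, 48.4, 58.3 and 68.2 CPM in Ag and at 66.1, 82.0, 100.4, 73.9 and 71.8 CPM in Ag+Costim. In CPM only Ag 5 and Ag+Costim 1 crossed, and 4 of 5 Ag+Costim libraries exceeded all Ag libraries. Counted per transcript length and scaled to the same total in each library, Ag+Costim 4 and 5 (14.1 and 14.9) lay inside the Ag range of 12.2 to 16.8. The log2 fold change was 0.50 (SE 0.16, edgeR adjusted p = 0.220). Unlike Dnmt1 and Uhrf1, Dnmt3a was not low in Ag 4, and its lowest Ag libraries were Ag 1 and Ag 3. Its spread on the log2 scale was alike in both groups (SD 0.21 in Ag and 0.23 in Ag+Costim).

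Dnmt3b, the other de novo enzyme (ENSMUSG00000027478.15, chr2:153649450-153687730, plus strand), was at 11.7, 12.2, 11, 11.7 and 13.6 CPM in Ag and at 11.5, 12.9, 13.8, 10.9 and 13.2 CPM in Ag+Costim. Its groups lay within the same narrow range, with a log2 fold change of 0.05 (SE 0.13, 95% interval -0.24 to 0.34, edgeR adjusted p = 0.830). The sign of this difference was negative with 3 other scalings. Its SD on the log2 scale was 0.12 in Ag, the lowest of the 10 genes there, and 0.14 in Ag+Costim, where Ezh2 had 0.083.

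Ezh2, the catalytic subunit of PRC2 (ENSMUSG00000029687.16, chr6:47530139-47595341, minus strand), was at 66.8, 208, 135, 96.2 and 172 CPM in Ag. In Ag+Costim it was at 234, 234, 229, 262 and 253 CPM, a range of 1.14-fold against 3.11-fold in Ag. The groups did not overlap, and the log2 fold change was 0.83 (SE 0.27, edgeR adjusted p = 0.229).

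Suz12, the subunit that holds PRC2 together (ENSMUSG00000017548.15, chr11:79993106-80034123, plus strand), was at 26.9, 66.4, 45.4, 34.9 and 46.7 CPM in Ag and at 69.6, 85.6, 89.7, 82.7 and 75.2 CPM in Ag+Costim. Ag 2 came closest to the Ag+Costim range without entering it. Among the 10 genes Suz12 had the smallest p, with a log2 fold change of 0.87 (SE 0.22, edgeR adjusted p = 0.172).

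Eed, which binds the methylated histone tail (ENSMUSG00000030619.9, chr7:89954654-89980983, minus strand), was at 34.3, 133, 68.8, 43.1 and 118 CPM in Ag and at 115, 133, 124, 140 and 108 CPM in Ag+Costim. Ag 2 and Ag 5 fell inside the Ag+Costim range and the other 3 Ag libraries below it. The log2 fold change was 0.64 (SE 0.35, 95% interval -0.13 to 1.40, edgeR adjusted p = 0.303).

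The 3 Tet genes had lower means in Ag+Costim, and their ranges overlapped. Tet3 (ENSMUSG00000034832.15, chr6:83362373-83459084, minus strand) was at 80.8, 38.6, 42.4, 103.5 and 24.9 CPM in Ag and at 36.9, 33.5, 36.0, 25.8 and 33.0 CPM in Ag+Costim. Its log2 fold change was -0.81 (SE 0.34, edgeR adjusted p = 0.266), with Ag 1 and Ag 4 the high libraries. Without Ag 5 every Ag+Costim library lay below every Ag library. Tet2 (ENSMUSG00000040943.12, chr3:133463679-133545139, minus strand) was at 40.1, 23.5, 37.7, 43.0 and 12.7 CPM in Ag and at 21.9, 23.9, 20.8, 17.4 and 23.7 CPM in Ag+Costim. Here Ag 1, 3 and 4 were high and Ag 5 was the lowest of all 10 libraries, and the log2 fold change was -0.54 (SE 0.29, edgeR adjusted p = 0.300). Tet1 (ENSMUSG00000047146.17, chr10:62804570-62908996, minus strand) was low throughout, at 9.47, 0.069, 9.03, 10.04 and 1.66 CPM in Ag and at 1.81 to 2.34 CPM in Ag+Costim. Ag 1, 3 and 4 were high, with Ag 2 and Ag 5 below the Ag+Costim libraries, and the log2 fold change was -1.53 (SE 0.86, edgeR adjusted p = 0.311). The high libraries for Tet1 and Tet2 were the 3 with over 40000 genes detected and with B cell markers at or above 116 CPM.

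**Figure D2:**
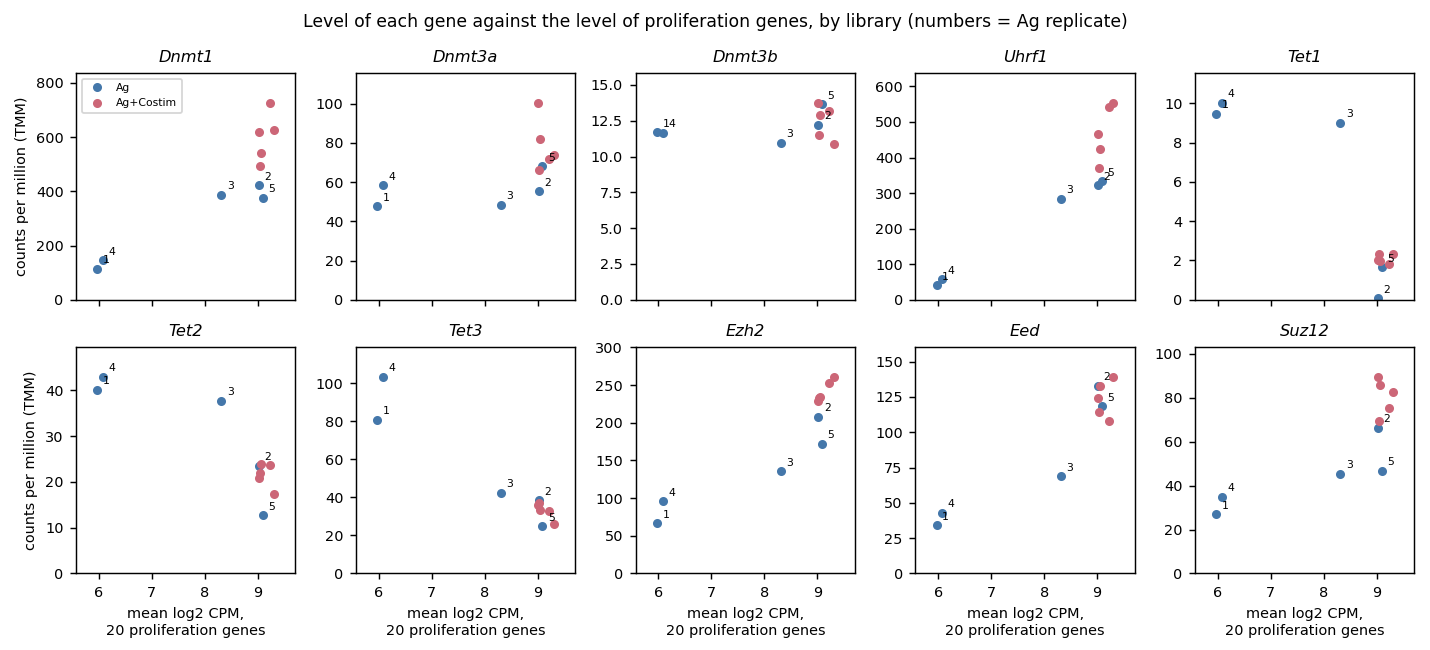
Level of each gene in TMM-scaled CPM (vertical axis, linear from 0) against the mean log2 CPM of 20 proliferation genes (horizontal axis) in the Ag (blue, numbered) and Ag+Costim (red) libraries. Dnmt1, Uhrf1, Ezh2, Eed and Suz12 were lowest and Tet3 highest in Ag 1 and Ag 4, the libraries at 5.97 and 6.08 on the horizontal axis.

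Ag 2 and Ag 5, the Ag libraries with fewer than 40000 genes detected, also lay inside the Ag+Costim ranges for proliferation genes and B cell markers. In genes detected they did not, with 21779 and 20714, fewer than any Ag+Costim library (28727 to 30340). The fit was repeated with Ag 2 and Ag 5 as the only Ag libraries, a choice made after seeing the data. It tested the 2 Ag against the 5 Ag+Costim libraries and called 10.8% of 25394 genes at a BH under 0.05. Dnmt1 was called higher in Ag+Costim, with a log2 fold change of 0.62 (SE 0.15, edgeR adjusted p = 0.0381). The next were Uhrf1 at 0.55 (SE 0.16, edgeR adjusted p = 0.0576), Ezh2 at 0.38 (SE 0.11, edgeR adjusted p = 0.0576) and Suz12 at 0.54 (SE 0.16, edgeR adjusted p = 0.0681), which did not pass. These 3 and Dnmt1 kept their direction at a smaller size than with all Ag libraries. Eed came to 0.01 (SE 0.11), Tet3 to 0.08 (SE 0.20) and Tet2 to 0.27 (SE 0.24), so the difference in Eed shrank to near 0 and the signs of Tet2 and Tet3 turned. Tet1 turned to 1.33 (SE 0.88), with Ag 2 at 0.069 CPM.

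**Figure D3:**
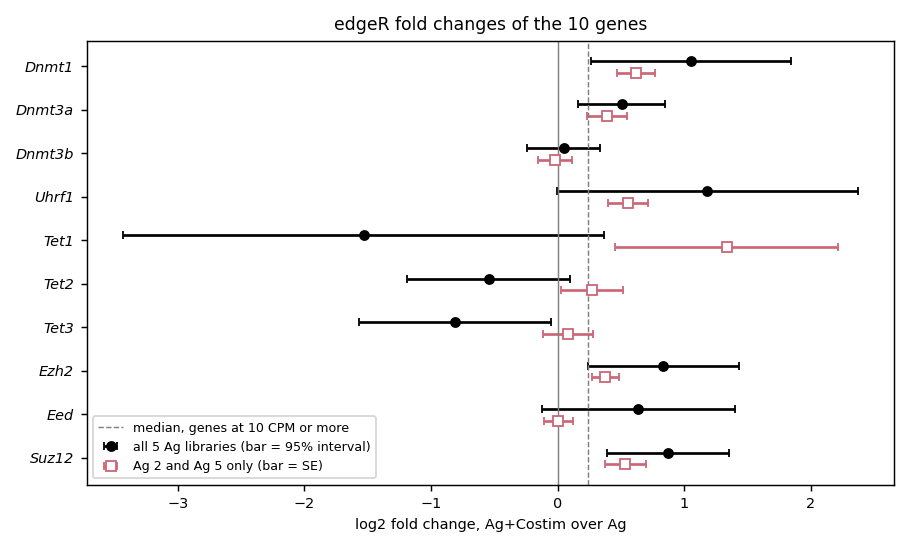
Log2 fold changes of the 10 genes, Ag+Costim over Ag, from edgeR with all 5 Ag libraries (black, bar = 95% interval) and with Ag 2 and Ag 5 only (open red squares, bar = SE), with the median of the 8626 genes at 10 CPM or more, 0.24, as a dashed line. With Ag 2 and Ag 5 only, Dnmt1, Uhrf1, Ezh2 and Suz12 lie between 0.38 and 0.62, and Tet1, Tet2 and Tet3 lie above 0.

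For levels across genes, counts were divided by transcript length and scaled to the same total in each library (TPM scale). In Ag+Costim the order was Uhrf1 (205 ± 32.5 TPM, SD, n = 5), Dnmt1 (172 ± 25.3), Ezh2 (143.5 ± 10), Eed (97.8 ± 8.45), Suz12 (28.9 ± 2.8), Dnmt3a (20.1 ± 7.01), Tet3 (6.52 ± 1.13), Tet2 (4.85 ± 0.73), Dnmt3b (4.77 ± 0.53) and Tet1 (0.607 ± 0.156). The ranges of neighbours overlapped except between Ezh2 and Eed, Eed and Suz12, Dnmt3a and Tet3, and Dnmt3b and Tet1. The overlap of Suz12 and Dnmt3a rested on Ag+Costim 1, with Dnmt3a at 31.4 TPM against 14.1 to 21.4 TPM in the other Ag+Costim libraries. Suz12 was at 25.0 to 32.2 TPM. In Ag+Costim 1 the 2328-base Dnmt3a-205 took 39.4% of Dnmt3a counts, while in CPM Dnmt3a was lowest of the group there (66.1 CPM). The order of the Ag means was the same, from Uhrf1 at 91.3 ± 57.7 to Tet1 at 2.65 ± 2.33 TPM, but there only Eed and Suz12 did not overlap as neighbours.

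Over all 10 libraries the ratios between PRC2 subunits varied less than their levels. Ezh2 over Suz12, per length, stayed between 3.91 and 6.26 and Ezh2 over Eed between 1.08 and 1.71 in all 10 libraries, although Ezh2 itself spanned 57.1 to 157 TPM. Within Ag+Costim this did not hold. There Ezh2 was at 131 to 157 TPM, Ezh2 over Suz12 at 4.07 to 6.26 and Ezh2 over Eed at 1.28 to 1.71. Ezh1, the alternative catalytic subunit, was high where Ezh2 was low. Its level was 91.3, 32.5, 40.1, 117 and 39.2 CPM in Ag and 36.8 to 50.03 CPM in Ag+Costim, with a log2 fold change of -0.46 (SE 0.35, edgeR adjusted p = 0.409). Per length, Ezh2 over Ezh1 was 1.12, 9.38, 5.14, 1.23 and 6.92 in Ag and 7.25 to 10.8 in Ag+Costim, so that both enzymes stood at almost equal levels in Ag 1 and Ag 4.

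Ag+Costim libraries were more alike than Ag libraries in 8 of the 10 genes, the exceptions being Dnmt3a and Dnmt3b. The median SD of log2 CPM over the 10 genes was 0.79 in Ag and 0.17 in Ag+Costim. Over the 8626 genes at 10 CPM or more it was 0.47 and 0.12, and 96.5% of these genes had the larger SD in Ag.

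Promoter sequences were examined because Dnmt1, Uhrf1 and Ezh2 moved together across libraries (Spearman's rho 0.94 to 0.95 between pairs over 10 libraries, a description of libraries that share depth and composition). Within Ag+Costim the rho of these pairs was 0.6 to 0.9. Over the 10 libraries Suz12 followed these 3 genes at rho 0.84 to 0.89 and Dnmt3a at 0.75 to 0.85. RefSeq windows of GRCm38.p6, from 250 bases before to 50 after a start site, were available for 10 of 10 genes, 15 windows in all. The letters TTTCGCGC and TTTGGCGC, which E2F factors of the cell cycle are known to bind, were searched on both strands, and no match overlapped another. They occurred in 3 of the 15 windows, a window each of Dnmt1, Uhrf1 and Ezh2, and in 0.813% of all 32851 windows. The windows of Suz12 and Dnmt3a held no match. The windows of the 10 genes were also richer in CpG, with a median of 30 CG steps against 7 in all windows. Each match is shown in capitals with up to 11 bases on either side, 5′ to 3′ on the strand of the gene.
Dnmt1, chr9:20952824-20952853, minus strand: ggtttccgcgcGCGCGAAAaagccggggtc
Dnmt1, chr9:20952574-20952601, minus strand: gcggggcagcgTTTGGCGCgggctgtgc
Uhrf1, chr17:56304117-56304146, plus strand: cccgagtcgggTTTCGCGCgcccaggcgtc
Ezh2, chr6:47595009-47595038, minus strand: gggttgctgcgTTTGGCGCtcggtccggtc
The match of Uhrf1 lies 185 bases before the second annotated start, that of Ezh2 begins 3 bases past the start, and those of Dnmt1 lie 219 bases before and 33 past the most downstream of its starts. The windows with the matches of Dnmt1 and Uhrf1 are not those of their main transcripts. Dnmt1-201, with 94.4% (Ag) and 94.1% (Ag+Costim) of Dnmt1 counts on average, begins at 20952979, and the window there (20952930-20953229) held no match. Uhrf1-201, with 57.6% and 63.6% of Uhrf1 counts, begins at 56303321 in a window (56303087-56303386) without a match. CCAAT, a common promoter element, occurred in windows of 6 of the 10 genes and of 41.1% of all genes.

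The genes whose levels followed each member most closely over the 10 libraries were sought among 8617 genes at 10 CPM or more by Spearman's rho of log2 CPM. With 10 libraries many genes reach a rho near 1, and the libraries share depth and composition, so these are descriptions. For Uhrf1 they were Lig1 (DNA ligase), Fanci (DNA crosslink repair) and Tpx2 (spindle assembly), each at rho 1, in other words in the same order of libraries. For Dnmt1 they were Pole (DNA polymerase epsilon) and Ganab at rho 1 and Canx (a chaperone) at 0.988, and for Suz12 they were Lmnb1 (lamin B1) and Paxip1 at rho 1 and E2f2 (an E2F factor) at 0.988. Ezh2 was followed by Slc7a1 (an amino acid transporter), Ubxn8 and Ywhaz at rho 1. Eed was followed by Pcgf6, a subunit of the other Polycomb complex PRC1, Cox11 and Prss16 at 0.976. Dnmt3a had Ei24 at rho 1 and Runx3, a transcription factor of CD8+ T cells, and Setd3 at 0.976, whereas Dnmt3b reached at most 0.915 (Fam122a, then Ino80b and Slc9a3r1 at 0.879). The closest genes were Zfp955b (rho 1), Crebrf and Pcmtd1 (both 0.988) for Tet3, Exoc6b (0.964) and Xpr1 (0.952) for Tet2, and Mccc1 (rho 1), Fndc3a (0.964) and Arhgap12 (0.952) for Tet1.

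Partners in the same pathways were read from 6 lists of 64 genes, of which 62 were tested. Of these, edgeR called 0 in either direction and 13 had an unadjusted p under 0.05 (21.0%, beside 18.6% of all genes). In 6 the groups did not overlap with Ag+Costim higher (9.68%, beside 4.48% of all genes and 11.3% of those at 10 CPM or more), and in 0 with Ag+Costim lower (1.13% of all genes). The shares of 21.0% and 9.68% were near the background. Their median log2 fold change was 0.23, beside 0.57 for the 10 genes themselves, -0.32 for all genes tested and 0.24 for those at 10 CPM or more.

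Among the partners of maintenance and de novo methylation, 7 of 8 tested genes had a fold change above 0, with a median of 0.63, and Dnmt3l and Zfp57 were below the filter. Of the 8626 genes at 10 CPM or more 6520 had a fold change above 0, and of all 24262 tested 9145 had. Lig1, which joins the fragments of the lagging strand, was at 43.4, 328, 258, 49.9 and 376 CPM in Ag and at 378 to 491 CPM in Ag+Costim (log2 fold change 1.03, SE 0.55, edgeR adjusted p = 0.299). It had the low Ag 1 and Ag 4 of Dnmt1 and Uhrf1, and its groups did not overlap. Of the 12 demethylation and repair genes, Tdg, the glycosylase that excises oxidised methylcytosine, was at 47.3, 136, 110, 55.6 and 127 CPM in Ag and at 142 to 179 CPM in Ag+Costim (log2 fold change 0.72, SE 0.29, edgeR adjusted p = 0.258). Tdg thus did not overlap either, while the Tet genes that make its substrate had lower means in Ag+Costim. The median of that list was 0.04.

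Mbd1, a reader of methylated CpG, was the only one of 7 readers without overlap, at 43.7 to 49.8 CPM in Ag and 50.04 to 60.02 CPM in Ag+Costim (log2 fold change 0.24, SE 0.11, edgeR adjusted p = 0.270). The ranges nearly touched. The median of the readers was -0.20.

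Of 10 further PRC2 subunits none was free of overlap, and 6 had fold changes above 0 (median 0.31). The largest change at 10 CPM or more was that of Phf1, an accessory subunit, at 37.7, 10.8, 13, 43 and 10.9 CPM in Ag and 8.33 to 15.5 CPM in Ag+Costim (log2 fold change -0.90, SE 0.43, edgeR adjusted p = 0.277). Phf1 was high in Ag 1 and Ag 4, as Ezh1 was. Of 20 PRC1 subunits, Cbx2, which binds trimethylated H3 lysine 27, was at 5.19, 10.3, 20.1, 5.12 and 15 CPM in Ag and at 22 to 29.5 CPM in Ag+Costim (log2 fold change 1.20, SE 0.36, edgeR adjusted p = 0.214). Cbx2 did not overlap, nor did Pcgf2, which stayed under 2 CPM, and the median of the list was 0.23. Bap1, which removes ubiquitin from histone H2A and so opposes PRC1, was at 84.7 to 116 CPM in Ag and at 123 to 139 CPM in Ag+Costim (log2 fold change 0.46, SE 0.13, edgeR adjusted p = 0.195). It was the only one of 5 Polycomb antagonists without overlap.

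**Figure D4:**
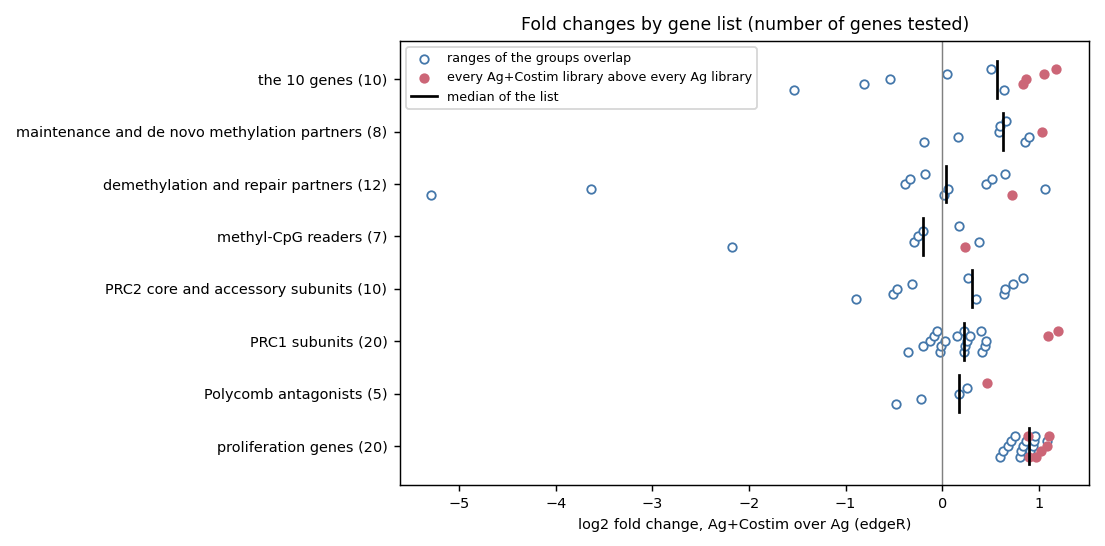
Log2 fold changes (horizontal axis, edgeR, Ag+Costim over Ag) of the tested genes in each list (rows, number tested in brackets), filled red where the lowest Ag+Costim library exceeded the highest Ag library, with the median of each list as a black line. The 10 genes have a median of 0.57, the 20 proliferation genes one of 0.90 and the methyl-CpG readers one of -0.20.

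All 20 proliferation genes had fold changes above 0, beside 6520 of the 8626 genes at 10 CPM or more and 9145 of all 24262 tested. In 6 of them (30%) the groups did not overlap with Ag+Costim higher, beside 11.3% and 4.48%. At an unadjusted p under 0.05 edgeR counted 1 of the 20 (5%), beside 18.6% of all genes. The mean level of the list differed by 1.43 on the log2 scale (Ag 7.70 ± 1.55, Ag+Costim 9.13 ± 0.13, SD, n = 5 each).

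Transcripts were examined because the genes have known isoforms with different activity. The annotation lists 100 transcripts for the 10 genes, and 20 of them held at least 10% of their gene's counts on average in a group. No member passed edgeR's test of transcript usage, which called 0.297% of 10441 genes. The smallest value was that of Suz12 (edgeR adjusted p = 0.858). None of the 20 transcripts had shares that separated the groups. Of the coding stretches in which the main transcripts of Suz12, Ezh2 and Dnmt3b differ, 5 are shown in capitals with 12 flanking bases of the transcript, 5′ to 3′, from GENCODE M21 (mm10).
Suz12 exon, chr11:79999057-79999125, plus strand: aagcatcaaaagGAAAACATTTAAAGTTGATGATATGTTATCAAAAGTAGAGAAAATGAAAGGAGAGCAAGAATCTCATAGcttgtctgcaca
Ezh2 longer stretch, chr6:47576536-47576562, minus strand: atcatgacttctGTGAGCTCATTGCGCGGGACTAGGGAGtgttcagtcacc
Ezh2 shorter stretch, chr6:47551717-47551731, minus strand: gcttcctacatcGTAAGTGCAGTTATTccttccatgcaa
Dnmt3b shorter exon, chr2:153670849-153670908, plus strand: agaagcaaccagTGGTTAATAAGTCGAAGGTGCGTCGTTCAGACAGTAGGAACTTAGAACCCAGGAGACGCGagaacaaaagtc
Dnmt3b longer exon, chr2:153683608-153683677, plus strand: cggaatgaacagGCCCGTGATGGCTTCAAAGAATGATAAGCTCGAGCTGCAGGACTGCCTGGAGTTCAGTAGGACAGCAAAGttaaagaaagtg
The first 4 stretches are whole numbers of codons long (69, 27, 15 and 60 bases), whereas the last has 70 bases. The same annotated transcripts hold or skip it and the neighbouring 119-base exon at chr2:153684359-153684477, so transcript counts must give both the same inclusion in every library. Both exons together are a whole number of codons long.

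Suz12 had 2 main transcripts that differ by the 69-base exon. Suz12-201, which holds it, took 80.7, 13.4, 81.4, 36.3 and 18.9% of the gene's counts in Ag and 18.9 to 34.1% in Ag+Costim. Suz12-206, which lacks it, took 18.1, 86.1, 16.4, 63.2 and 81.0% in Ag and 65.6 to 80.9% in Ag+Costim. The Ag libraries thus disagreed about which transcript was the main one, while all Ag+Costim libraries put Suz12-206 first. The authors' percent spliced in (PSI), taken from the reads and given as 1 value per group, was 0.874 for this exon in Ag and 0.850 in Ag+Costim. From the transcript counts its inclusion came to 47.0 ± 33.7% and 27.5 ± 7.3% (SD, n = 5 each). The StringTie transcript counts came near the Whippet PSI in Ag 1 and Ag 3 and lay at 36.8% or less in the other 8 libraries, so the main transcript of Suz12 depends on which of the authors' quantifications is read.

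Ezh2-201 took 61.9, 69.95, 75.9, 60.1 and 69.7% of Ezh2 counts in Ag and 48.6 to 69.2% in Ag+Costim, and Ezh2-204 took 16.4 to 31.1% and 18.1 to 29.6%. Ezh2-204 both lacks the 27-base stretch and holds the 15-base stretch. For the 27-base stretch, inclusion from transcript counts was 75.2 ± 6.6% in Ag and 72.5 ± 6.5% in Ag+Costim, and the PSI values of 0.746 and 0.726 lay inside that range. For the 15-base stretch it was 24.5 ± 6.5% and 26.3 ± 5.4%, and the PSI was 0.046 in both groups. The authors' 2 quantifications thus overlapped on the first of these differences and not on the second.

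Dnmt3b spread its counts over 5 main transcripts. Dnmt3b-206 took 6.38, 34.0, 83.1, 40.9 and 24.5% in Ag and 22.1 to 53.8% in Ag+Costim. Dnmt3b-205 took 0 to 41.3% and 0.63 to 27.9%, Dnmt3b-203 took 0 to 24.3% and 1.88 to 27.5%, and Dnmt3b-209 took 0 to 27% and 16.3 to 28.6%. Dnmt3b-201, the only one of them with the 60-base exon, took 48.2% in Ag 1, at most 12.6% in the other Ag libraries and 1.51 to 6.87% in Ag+Costim. The 70-base exon, which encodes part of the catalytic domain, was included at 76.9, 25.2, 13.2, 16.6 and 53.8% in Ag and at 36.2 to 52.3% in Ag+Costim by transcript counts, with a PSI of 0.206 and 0.278. In Ag+Costim every library thus gave a higher inclusion by transcript counts than the PSI of the group. The 60-base exon had a PSI of 0.026 and 0.028, and the 119-base exon next to the 70-base exon had 0.270 and 0.284.

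**Figure D5:**
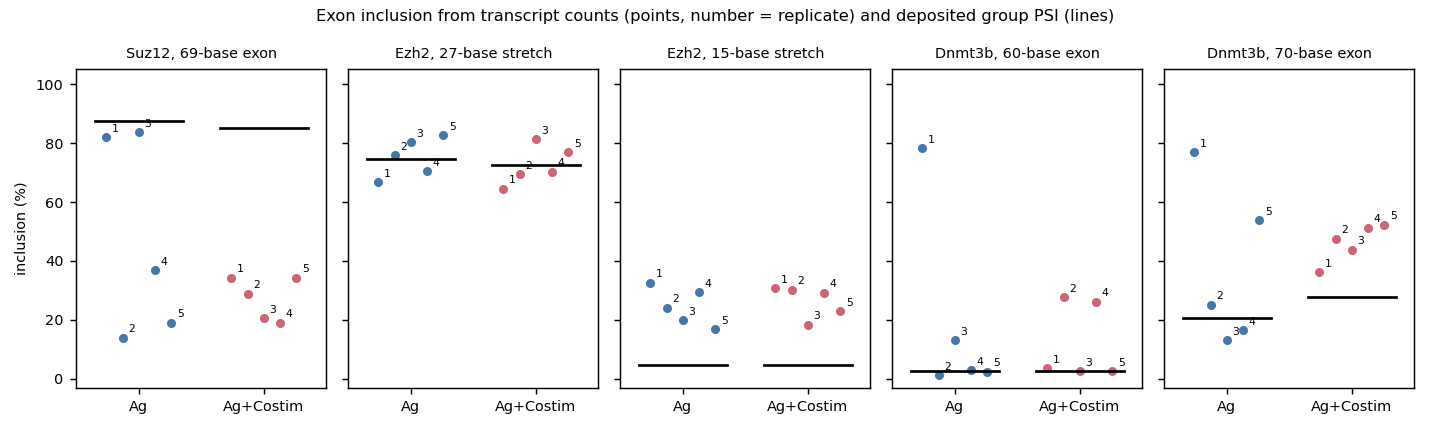
Inclusion in percent (vertical axis) of 5 stretches of Suz12, Ezh2 and Dnmt3b computed from transcript counts in each Ag (blue) and Ag+Costim (red) library, numbered by replicate, with the authors' PSI of each group as a black line. The points of the 69-base exon of Suz12 run from 13.9 to 83.6% under lines at 87.4 and 85.0%, and those of the 27-base stretch of Ezh2 lie around their lines.

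Dnmt1-201 took 88.9 to 97.1% and Eed-201 took 94.96 to 97.6% of counts in every library. Tet2-201 took 71.1 to 96.2% in Ag and 91.4 to 93.7% in Ag+Costim, Tet3-202 took 58.7 to 72.5% and 61.7 to 71.2% beside Tet3-203 at 17.2 to 33.2% over all libraries, and Tet1-206 took 75.2 to 95.6% over all libraries. The short noncoding Tet1-202 was the rest of most Tet1 counts, at 0% in Ag 2, 3 and 5, 16.2% in Ag 1, 20.6% in Ag 4 and 7.76 to 22.6% in Ag+Costim. Dnmt3a-201 took 81.5 to 96.2% in Ag and 94.8 to 96.5% in Ag+Costim except for 53.7% in Ag+Costim 1. Uhrf1-201, Uhrf1-203 and Uhrf1-204 differ in their first exon, with Uhrf1-201 at 57.6 ± 5.9% (Ag) and 63.6 ± 4.3% (Ag+Costim), each as mean and SD of 5 libraries.

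Of 199 splicing, start and end events with a PSI in both groups, 17 differed by more than 0.05 (8.54%, beside 11.9% of all 138940 events). With 1 value per group there is no test. None belonged to Dnmt1, Tet3, Ezh2, Eed or Suz12. At Uhrf1 the start region chr17:56303321-56303399 had Ag and Ag+Costim PSI values of 0.443 and 0.642, the region right after it had 0.557 and 0.358, and of a second pair of start regions chr17:56304313-56304347 had 0.111 and 0.052 and chr17:56304348-56304393 had 0.892 and 0.949. The values of each pair add up to about 1, so they are shares within a pair and not of all Uhrf1 transcripts. The share of Uhrf1-201, which begins at the most upstream start, overlapped between the groups. Dnmt3b had 6 of the 17 events. They include the single-base start node at position 153649453 (0.929 and 0.593), the 115-base exon at chr2:153650785-153650899 (0.444 and 0.297) and the middle one of 3 end regions, chr2:153687317-153687726 (0.395 and 0.581), in a gene at 10.9 to 13.8 CPM. At Dnmt3a the 2 parts of the last exon shifted by 0.10 each, with the far part at 0.377 and 0.477. At Tet2 the 94-base exon at chr3:133481334-133481427 had a PSI of 0.853 and 0.974 and the 151-base exon at chr3:133476485-133476635 one of 0.918 and 0.976. For Tet1, 3 exons had lower values in Ag+Costim (0.974 and 0.916, 0.980 and 0.911, and 0.959 and 0.869). Tet1 was the member with the lowest level.

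Some counts could be shared with other genes. Libraries of this kit do not mark the strand, and exons of genes on the opposite strand cover 261 of 3828 exon bases of Eed, 178 of 4945 of Suz12, 174 of 6678 of Ezh2, 133 of 16642 of Dnmt3a and 43 of 16870 of Tet2. Those genes were at 0.08 to 1.45 CPM on average. Dnmt3a also has a processed pseudogene, Dnmt3a-ps1.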

How the data were processed

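Per the labels and the methods, poly(A) RNA of sorted donor CD8+ T cells was amplified with SMART-Seq v4, made into Nextera XT libraries and sequenced. Per the submitters' processing notes, the authors used HISAT2 2.1.0, SAMtools 1.9 and StringTie 2.1.0 with mm10. The deposited gene and transcript tables hold estimated counts (expected counts) from read coverage, already rounded and not normalized, so their totals are not reads and give no counting intervals. The authors' Whippet table gives 1 PSI per event and group, a fraction. Its difference, probability, complexity and entropy columns were not used, so PSI values were subtracted here and no probability threshold was applied.

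The 10 genes and all lists were chosen with earlier results of these data known. Identifiers were matched to GENCODE M21, leaving out 26345 other entries. Genes past filterByExpr were tested with edgeR 4.0.16 (robust quasi-likelihood, TMM, group as the only term) in R 4.3.3, and intervals invert its p. DESeq2 1.42.0, limma 3.58.1 (voom with quality weights), other scalings, no filter, a replicate block and leaving out each library were alternatives. Transcript usage was tested with diffSpliceDGE (BH under 0.05 and a share change over 0.1 as a fraction). Inclusion is the share of counts on transcripts that hold a stretch among those that hold or span it. The text names all 10 genes, transcripts with at least 10% of a gene's counts, PSI events past 0.05, per list up to 3 genes at 10 CPM or more without overlap by fold change (otherwise the largest), the 3 genes most like each of the 10, and Ezh1. For Tet2, 1 of these 3 is not reported here. Scripts were tested on simulated data.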

Additional observations from a re-analysis of the deposited data

Results flagged for a closer look

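In 3 of the 60 groups of 5 libraries examined (20 gene levels and 40 transcript shares), 1 library stood far from the rest by Dixon's criterion, which chance meets in about 1 of 20 groups. All 3 were transcript shares. Dnmt3a-201 held 53.7% of Dnmt3a counts in Ag+Costim 1 and 94.8 to 96.5% in the other Ag+Costim libraries. Dnmt3b-201 held 48.2% in Ag 1 and 1.31 to 12.6% in the other Ag libraries. Uhrf1-204 held 5.34% in Ag+Costim 2 and 8.89 to 10.2% in the other Ag+Costim libraries. No gene level of the 10 was set apart in this way.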

How the results depend on the processing

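Of the 10 genes, DESeq2 called 5, voom with quality weights 9 and the fit with Ag 2 and Ag 5 only (chosen after seeing the data) 1, against 0 in edgeR with all libraries. Of the pathway genes they called 10, 42 and 4, against 0. DESeq2 was fitted without edgeR's filter, and among the 62 pathway genes tested with edgeR it called 4 higher and 5 lower. Over all genes DESeq2 called 930 higher and 7116 lower and voom 6254 and 6416, against 0. Every edgeR alternative with another scaling, no filter, the block or a library left out called 0 of the 10 genes and 0 pathway genes. Of the 10 genes 3 to 6 did not overlap in the alternatives, and with Ag 2 and Ag 5 only, which gave 6, 31.1% of all genes did not (5.60% with all libraries). Of 180 alternative fold changes 172 kept their direction, but sizes moved: the lowest (Ag 2 and Ag 5 only) and highest (voom) were 0.62 and 1.95 for Dnmt1, 0.55 and 2.89 for Uhrf1, 0.38 and 1.44 for Ezh2, 0.54 and 1.27 for Suz12 and 0.0063 and 1.51 for Eed. Dnmt3a ran from 0.24 (total counts) to 0.83 (no filter), and the lowest values were -2.03 for Tet1 and -1.32 for Tet3 (voom) and -0.93 for Tet2 (total counts). Dnmt3b turned to -0.090 with DESeq2 size factors, -0.23 with total counts, -0.19 with the upper quartile, -0.083 with DESeq2 and -0.023 with Ag 2 and Ag 5 only, and with these 2 libraries Tet1 turned to 1.33, Tet2 to 0.27 and Tet3 to 0.082. Voom gave Ag 2 and Ag 5 the lowest weights (0.099 and 0.066), and the cause of these shifts was not tested. Usage calls over all genes were 31 with edgeR, 145 with limma, 19 with at least 50 counts in 5 libraries, 33 to 93 with a library left out and 366 with Ag 2 and Ag 5 only, where Tet1 was the 1 member called (BH 0.0196 in edgeR). The replicate block gave 30 calls, with Ezh2 the 1 member (edgeR BH 0.00244). Replicate numbers showed no sign of pairing: deviations of same-numbered libraries correlated at -0.10 to 0.11, and 1 of 5 Ag libraries correlated best with its own number. With the wide spread of the Ag libraries this cannot show that the samples were unpaired. The block changed no other call. PSI differences over 0.1 numbered 8 in place of 17. The PSI probability thresholds were not run, because those columns were not used. Estimated counts give no counting error, and Dnmt3b and Tet1, at 13.8 CPM or less, rest on the fewest counts.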
